A study of Mus musculus with 46 samples.

Results

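The genes described here encode 8 EF-hand calcium-binding proteins: Pvalb, Calb1, Calb2, Necab1, Necab2, Hpcal1, Hpcal4 and Vsnl1. They were taken by name from a count table of 22800 genes, and all 8 were found there. The table holds 46 single oriens-lacunosum moleculare (OLM) interneurons, the dendrite-targeting somatostatin cells of the hippocampal stratum oriens. Of these, 23 came from an Sst Cre driver line and 23 from an Htr3a Cre driver line, all from mice of postnatal day 21 to 30. In such lines Cre is made where the promoter of the somatostatin gene (Sst) or of a serotonin receptor gene (Htr3a) is active. Cells marked by Cre stay marked, so a line selects cells by present or past activity. The cytosol of each cell was drawn into a patch pipette and 1 library was made per cell. The labels name no animal, so each line was treated as 1 sample, no test between lines was made, and the SDs below are between cells.

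EF-hand proteins hold calcium in a helix-loop-helix fold. Parvalbumin (Pvalb), calbindin (Calb1) and calretinin (Calb2) are mobile buffers that shape calcium transients, and their presence has long been used to sort interneurons into neurochemical classes. The NECAB proteins (Necab1, Necab2) carry an N-terminal EF-hand region and are found in subsets of neurons. The visinin-like proteins (Hpcal1, Hpcal4, Vsnl1) are neuronal calcium sensors, which are myristoylated and move to membranes when calcium rises.

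Members of these families resemble each other, so short coding stretches are shown to let it be seen how far reads could be told apart. For the visinin-like and the NECAB genes, the most similar aligned 60 bases of coding sequence were taken from the GENCODE M21 transcripts (GRCm38), and capitals mark the positions at which the genes differ. Each of these stretches contains 1 whole match to the PROSITE EF-hand calcium-binding pattern in its translation. For the visinin-like genes they are coding bases 199 to 258 of all 3, and 9 positions differ among them.
Hpcal1: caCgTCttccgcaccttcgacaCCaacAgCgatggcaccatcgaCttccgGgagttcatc
Hpcal4: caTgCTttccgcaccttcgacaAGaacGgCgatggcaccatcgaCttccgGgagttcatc
Vsnl1: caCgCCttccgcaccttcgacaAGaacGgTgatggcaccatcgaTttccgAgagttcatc
For the NECAB genes they are coding bases 94 to 153 of Necab1 and 205 to 264 of Necab2, with 15 differences.
Necab1: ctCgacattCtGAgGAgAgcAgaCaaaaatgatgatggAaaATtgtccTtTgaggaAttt
Necab2: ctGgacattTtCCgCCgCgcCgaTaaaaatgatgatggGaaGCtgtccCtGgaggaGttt

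Over their whole aligned coding sequence, Hpcal4 and Vsnl1 were identical at 82.1% of 576 bases. In the translated sequences the PROSITE pattern matched 2 times in Pvalb, 4 in Calb1, 5 in Calb2, 1 in Necab1, 2 in Necab2 and 3 each in Hpcal1, Hpcal4 and Vsnl1. Among the 28 pairs of the 8 genes, only Hpcal1 and Hpcal4 shared any 31-base word of their transcripts, and they shared 2. Words also found in any other gene of the annotation made up 0% for Pvalb, Calb2 and Necab2, 0.289% for Calb1, 0.429% for Hpcal4 and 0.675% for Vsnl1. They made up 8.26% for Necab1, most of them shared with Gm11837, whose exons overlap those of Necab1 on the other strand, and 19.7% for Hpcal1. The strand setting of the counting is unknown here, so reads of Necab1 and Gm11837 from the overlap, which holds 7.30% of the Necab1 words, cannot be told apart. With its share of common words, low counts of Hpcal1 are uncertain.

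Sst-line cells had a median of 16726879 reads (5639490 to 31386369) with 6569 genes read at the median, and Htr3a-line cells a median of 15336981 reads (3391829 to 26136222) with 8169 genes read. Sst and the genes of the GABA-making enzymes, Gad1 and Gad2, had reads in all 23 cells of each line. Slc32a1, also listed as a marker of GABAergic cells, was read in 22 cells of each line. A cell without a read of a gene is not shown to lack its transcript. In 2 Htr3a-line libraries the Gad1 count was low, with 4 reads in replicate 4 and 24 reads in replicate 20. Gad2 had 4975 reads in replicate 4 and 5 reads in replicate 20, so of these only replicate 20 was low for both genes. Htr3a replicate 10 had the most genes read (12693). Values without replicates 4 and 20 are given beside the line differences, the correlations and the leading genes, and values without replicate 10 beside the pair of Hpcal1 and Calb2. Values are counts per 1000000 reads of the cell (CPM). A share of cells with at least 1 read carries an exact Clopper-Pearson 95% interval. A sum over cells carries an exact Poisson 95% interval on its reads. Both cover counting error only. The Clopper-Pearson interval takes the cells of a line as independent draws, though their animals are unknown. Overlap of 2 such intervals does not show that the lines agree. The Poisson interval leaves out the spread between cells and the repeated counting of copies of 1 molecule, so it does not measure a gap between lines.

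The 8 genes fell into a ubiquitous sensor, 2 genes of most cells and 5 genes of a minority of cells (shown in the plot of levels by cell). Vsnl1 was read in every cell of both lines, Hpcal4 and Calb1 in 60.9% to 82.6% of cells, and the other 5 in 13.04% to 47.8%. A cell held reads of a median of 4 of the 8 genes in the Sst line (2 to 8) and of 4 in the Htr3a line (2 to 8), and these medians were again 4 and 4 after each cell was thinned to 5000000 reads, which left out 0 Sst-line cells and 1 Htr3a-line cell. At a minimum of 10 CPM the medians were 3 and 4.

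**Figure D1:**
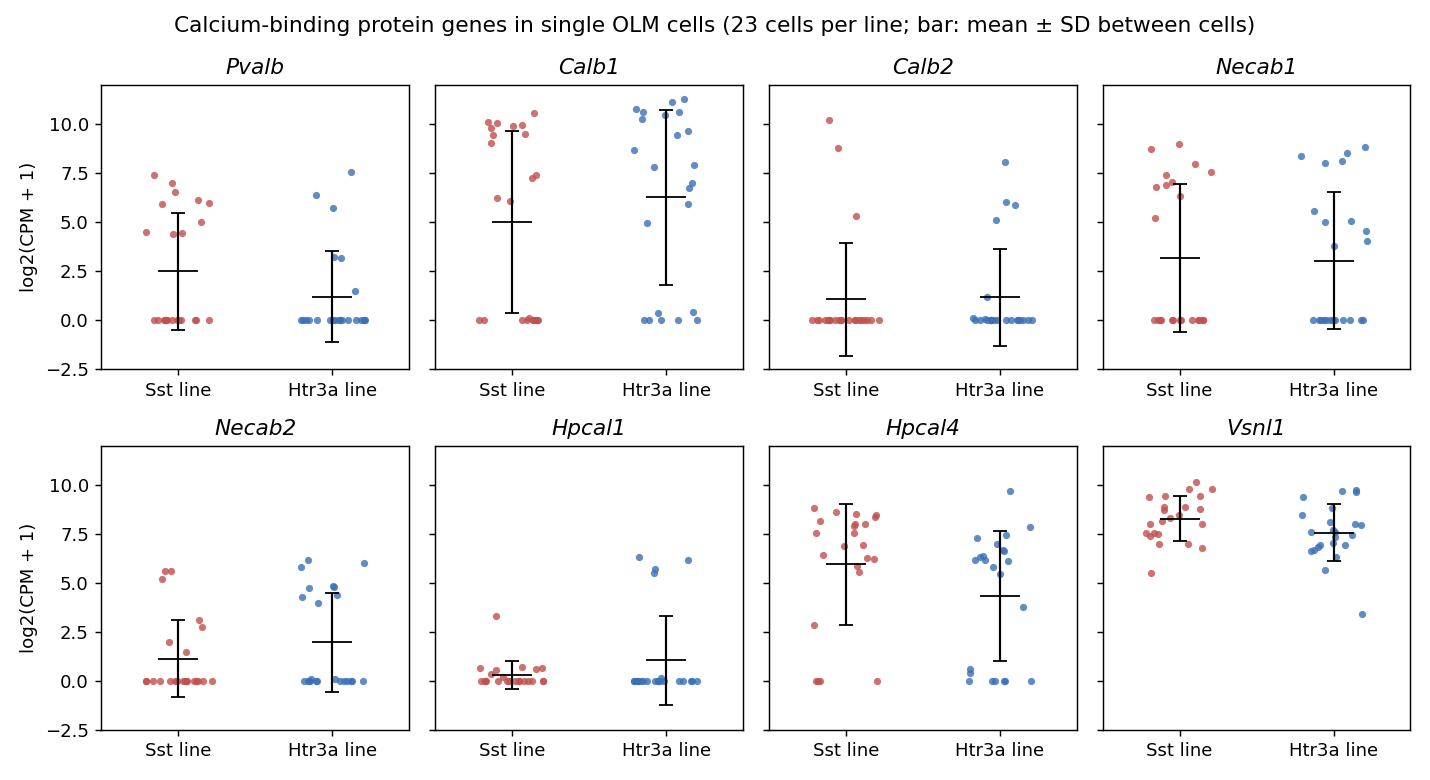
Level of each gene in each cell as log2(CPM + 1), with Sst-line cells (red) left of Htr3a-line cells (blue), 23 cells each; black bars give the mean and the SD between cells. Vsnl1 is read in every cell, while Calb1 is either high or without a read in most cells.

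Compared per kilobase of exon, the only scale on which the genes are set against each other, Vsnl1 stood first in both lines. Its median was 160 CPM per kb in Sst-line cells and 96.8 CPM per kb in Htr3a-line cells. By the mean of log2(CPM per kb + 1) the order in the Sst line was Vsnl1 (7.31 ± 1.14, SD, 23 cells), Hpcal4 (4.02 ± 2.24), Calb1 (3.74 ± 3.54), Pvalb (2.46), Necab1 (2.15), Calb2 (0.95), Necab2 (0.85) and Hpcal1 (0.22). In the Htr3a line it was Vsnl1 (6.60 ± 1.42), Calb1 (4.67 ± 3.54), Hpcal4 (2.78 ± 2.27), Necab1 (1.96), Necab2 (1.56), Pvalb (1.18), Calb2 (0.99) and Hpcal1 (0.90). Of neighbours in these orders, only Vsnl1 and Hpcal4 in the Sst line were farther apart than the SD between cells, by 3.29 against a pooled SD of 1.78. Cell by cell, Vsnl1 had the highest level per kb in 16 Sst-line and 13 Htr3a-line cells, Calb1 in 2 and 8, Pvalb in 2 and 2, Calb2 in 2 and 0, and Hpcal4 in 1 and 0. Without Htr3a replicates 4 and 20, the counts for that line were 11 for Vsnl1 and 8 for Calb1.

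Of the buffers, parvalbumin was read in a minority of OLM cells of both lines. Parvalbumin is a slow-onset buffer best known from fast-spiking basket cells. The gene Pvalb (protein-coding, chr15:78191114-78206400 in GRCm38, as are all coordinates below) was read in 10 of 23 cells of the Sst line (43.5%, interval 23.2 to 65.5) and in 6 of 23 of the Htr3a line (26.1%, interval 10.2 to 48.4), and the intervals overlap. In positive Sst-line cells the CPM was lowest at 19.9, median 60.6 and highest at 165, and in positive Htr3a-line cells it was 1.83, 30.1 and 188. The 6 Htr3a-line cells fell apart, with 1.83, 7.85 and 8.14 CPM in replicates 22, 10 and 15 and 52.2, 81.9 and 188 CPM in replicates 23, 21 and 11. All 10 positive Sst-line cells thus lay above 10 CPM, against 3 Htr3a-line cells (43.5%, 23.2 to 65.5, and 13.04%, 2.78 to 33.6). This gap of 7 cells was singled out after the values were seen. As a background, 0.277% of the 11196 genes whose log2(CPM + 1) averaged 0.5 or more had as many more Sst-line than Htr3a-line cells at that level, and 3.47% had as many fewer, which 0 of the 8 did. The counts summed over a line came to 29.4 CPM (28.8 to 29.9) in the Sst line against 14.3 CPM (13.9 to 14.7) in the Htr3a line, where replicate 11 alone held 59.9% of the Pvalb reads and the sum without it was 6.0 CPM.

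Calbindin was the most widespread buffer, and most cells held either a high level or no read. The gene Calb1 (protein-coding, chr4:15881264-15908064) was read in 14 of 23 cells of the Sst line (60.9%, interval 38.5 to 80.3) and in 18 of 23 of the Htr3a line (78.3%, interval 56.3 to 92.5). Calbindin is a fast buffer found in several hippocampal cell types, pyramidal cells among them. Over all cells the median was 73.5 CPM for the Sst line and 222 CPM for the Htr3a line. Among positive cells the CPM was 0.058, 703 and 1536 (lowest, median, highest) in the Sst line against 0.295, 551 and 2521 in the Htr3a line. Only 1 Sst-line cell (replicate 2, with 1 read) and 2 Htr3a-line cells had Calb1 reads below 10 CPM, and 11 and 14 cells exceeded 100 CPM. The 2 low Htr3a-line cells were replicates 4 and 20, the libraries with few Gad1 reads. Summed over cells, Calb1 took 409 CPM (407 to 411) in the Sst line against 721 CPM (718 to 724) in the Htr3a line. Positive cells of the lines overlapped in level, with means of 8.25 ± 2.79 (SD, 14 cells) in the Sst line against 8.004 ± 3.35 (18 cells) in the Htr3a line on the log2(CPM + 1) scale. At least 1000 CPM was found in 3 cells of the Sst line and 7 of the Htr3a line, while 9 and 5 cells had no Calb1 read.

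Calretinin, best known from interneurons that contact other interneurons, was rare. The gene Calb2 (protein-coding, chr8:110137502-110168210) was read in 3 of 23 cells of the Sst line (13.04%, interval 2.78 to 33.6) and in 7 of 23 of the Htr3a line (30.4%, interval 13.2 to 52.9). The 3 Sst-line cells held 38.4 CPM (replicate 9), 446 CPM (replicate 7) and 1168 CPM (replicate 21). Of the 7 Htr3a-line cells, 3 lay below 10 CPM, 3 held 33.1, 56.8 and 64.5 CPM (replicates 10, 8 and 22) and the highest, replicate 17, held 265 CPM. Sums over a line therefore rested on single cells. They were 74.9 CPM in the Sst line, or 23.0 CPM without replicate 21, and 18.8 CPM in the Htr3a line, or 5.58 CPM without replicate 17. Interneurons born in the caudal ganglionic eminence (CGE) also make calretinin, and 9 markers of CGE and Vip interneurons summed to a median of 0.185 CPM in Sst-line cells (0 to 190) and 27.1 CPM in Htr3a-line cells (0 to 1173). Of these markers, which include Htr3a itself, 4 had a mean of at least 0.5, and they went different ways. Their differences in mean log2(CPM + 1), Sst line minus Htr3a line, were -0.77 for Crh, -0.36 for Htr3a, -0.23 for Cck and 0.16 for Sncg. Vip and Prox1 were each read in 1 of the 46 cells, Cxcl14 in 3, Adarb2 in 5 and Npy2r in 0. The part of these markers in the Calb2 values was not tested.

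**Figure D2:**
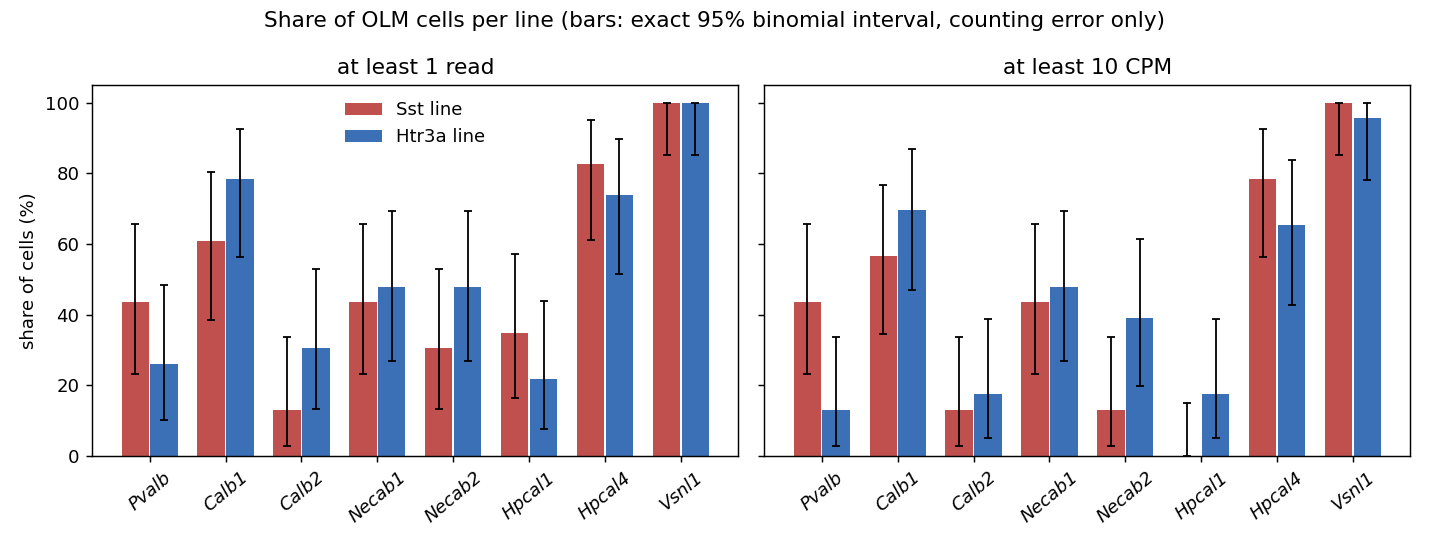
Share of cells (%) with at least 1 read (left) and at least 10 CPM (right) of each gene, Sst line (red) left of Htr3a line (blue), with exact 95% binomial intervals over 23 cells. The intervals of the lines overlap for every gene, and Hpcal1 has no Sst-line cell at 10 CPM.

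The EF-hand genes of the NECAB family were each read in a minority of the cells of either line. The gene Necab1 (protein-coding, chr4:14952245-15149794) was read in 10 of 23 cells of the Sst line (43.5%, interval 23.2 to 65.5) and in 11 of 23 of the Htr3a line (47.8%, interval 26.8 to 69.4). None of these cells lay below 10 CPM in either line. The CPM of positive cells was 35.8, 149 and 498 (lowest, median, highest) in the Sst line against 12.6, 45.5 and 448 in the Htr3a line, and 8 and 5 cells exceeded 100 CPM. The summed level was 78.9 CPM (78.0 to 79.8) in the Sst line against 90.1 CPM (89.1 to 91.1) in the Htr3a line, in an order that turned round without Htr3a replicate 18 (log2 ratio 0.18, against -0.19 with all cells).

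Necab2, whose product binds several G-protein-coupled receptors, was read at low levels. The gene Necab2 (protein-coding, chr8:119446719-119472640) was read in 7 of 23 cells of the Sst line (30.4%, interval 13.2 to 52.9) and in 11 of 23 of the Htr3a line (47.8%, interval 26.8 to 69.4). Positive cells held 1.73, 7.63 and 48.1 CPM in the Sst line against 0.0601, 26.02 and 70.7 CPM in the Htr3a line, so no cell reached 100 CPM. At 10 CPM the counts were 3 and 9 cells (13.04%, 2.78 to 33.6, and 39.1%, 19.7 to 61.5). The sum was 5.23 CPM (5.0 to 5.47) in the Sst line, or 3.16 CPM without replicate 2, and 16.1 CPM (15.7 to 16.6) in the Htr3a line.

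Vsnl1 was the calcium sensor common to all cells. The gene Vsnl1 (protein-coding, chr12:11325242-11436613) had reads in all 23 cells of each line (100%, 85.2 to 100). The CPM was lowest at 44.97, median 314 and highest at 1123 in Sst-line cells, and 9.43, 189 and 841 in Htr3a-line cells, so the ranges overlapped over most of their width. The lowest value belonged to Htr3a replicate 20, which also had the fewest reads. The sum was 401 CPM (399 to 403) in the Sst line against 314 CPM (312 to 315) in the Htr3a line.

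Hpcal4 was the other sensor read in most cells. The gene Hpcal4 (protein-coding, chr4:123183227-123194701) was read in 19 of 23 cells of the Sst line (82.6%, interval 61.2 to 95.05) and in 17 of 23 of the Htr3a line (73.9%, interval 51.6 to 89.8). Over all cells the median was 122 CPM for the Sst line and 68.9 CPM for the Htr3a line. Positive cells held 6.08, 184 and 452 CPM in the Sst line against 0.295, 79.5 and 811 CPM in the Htr3a line. Levels above 100 CPM were found in 13 Sst-line and 5 Htr3a-line cells, counts singled out after they were seen. The share of all genes with such a gap at 100 CPM was not counted. At 10 CPM the counts were 18 and 15 cells (78.3%, 56.3 to 92.5, and 65.2%, 42.7 to 83.6), and the intervals overlap. The sum was 187 CPM (185 to 188) in the Sst line against 110 CPM (108 to 111) in the Htr3a line, where replicate 18 held 40.5% of the reads and the sum without it was 68.9 CPM.

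Hpcal1 was the sparsest of the sensors, with few reads per positive cell in the Sst line. The gene Hpcal1 (protein-coding, chr12:17690856-17791933) was read in 8 of 23 cells of the Sst line (34.8%, interval 16.4 to 57.3) and in 5 of 23 of the Htr3a line (21.7%, interval 7.46 to 43.7). All 8 Sst-line cells lay below 10 CPM, between 0.127 and 9.04 CPM with a median of 0.550 CPM, and the highest (replicate 15) held 55.8% of the reads. Of the 5 Htr3a-line cells, 4 held 43.7, 51.04, 69.6 and 78.1 CPM (replicates 10, 17, 12 and 14) and replicate 22 held 1 read. More Sst-line cells than Htr3a-line cells thus had a read, while the positive Htr3a-line cells were mostly higher. The sums were 0.374 CPM (0.314 to 0.442) for the Sst line, or 0.169 CPM without replicate 15, and 13.5 CPM (13.2 to 13.9) for the Htr3a line, or 8.24 CPM without replicate 14. At 10 CPM the counts were 0 of 23 cells of the Sst line (0%, interval 0 to 14.8) and 4 of 23 of the Htr3a line (17.4%, interval 4.95 to 38.8), and the intervals overlap.

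The line difference of a gene is its mean log2(CPM + 1) over Sst-line cells minus that over Htr3a-line cells. A gene was counted as called where this reached 1 in size. Cells without a read enter the means as 0, so the difference joins the share of cells with a read and the level in them. Among the 8 genes, 2 were called higher in the Sst line and 1 lower; of all 11196 genes compared, 4.24% were called higher and 14.9% lower, 19.2% in all. The 2 higher ones were Hpcal4 (5.95 ± 3.09 in the Sst line against 4.33 ± 3.31 in the Htr3a line, SD, 23 cells each, difference 1.62) and Pvalb (2.49 ± 2.98 and 1.196 ± 2.34, difference 1.29). The lower one was Calb1 (5.02 ± 4.64 and 6.26 ± 4.48, difference -1.25). Each of these differences was smaller than the SD between cells within a line. Differences of the others were 0.72 for Vsnl1, 0.14 for Necab1, -0.09 for Calb2, -0.73 for Hpcal1 and -0.85 for Necab2. The median over the 8 was 0.02, beside -0.22 over all genes compared. With a pseudocount of 10 in place of 1, 89 genes were called higher and 185 lower, so that 32.5% of calls were higher, against 22.1% of calls before.

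The 3 calls moved with the scale. With the pseudocount of 10, Hpcal4 stayed above 1 (1.09) and Pvalb (0.64) and Calb1 (-0.80) did not. With the median over cells in place of the mean, Calb1 stayed past 1 in size (-1.58) and Hpcal4 (0.82) and Pvalb (0) did not. As log2 ratios of summed CPM the values were 0.76 for Hpcal4, 0.99 for Pvalb (2.12 without Htr3a replicate 11 and 0.62 without Sst replicate 3) and -0.82 for Calb1. Without Htr3a replicates 4 and 20 together, the differences were 1.22 for Hpcal4, 1.18 for Pvalb and -1.80 for Calb1, and that of Necab2 passed the same size at -1.04. In that setting Vsnl1 was at 0.48, Necab1 turned to -0.15, Calb2 was at -0.20 and Hpcal1 at -0.83. The median over the 8 was then -0.18, beside -0.36 over all genes compared, of which 325 were called higher and 2278 lower.

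**Figure D3:**
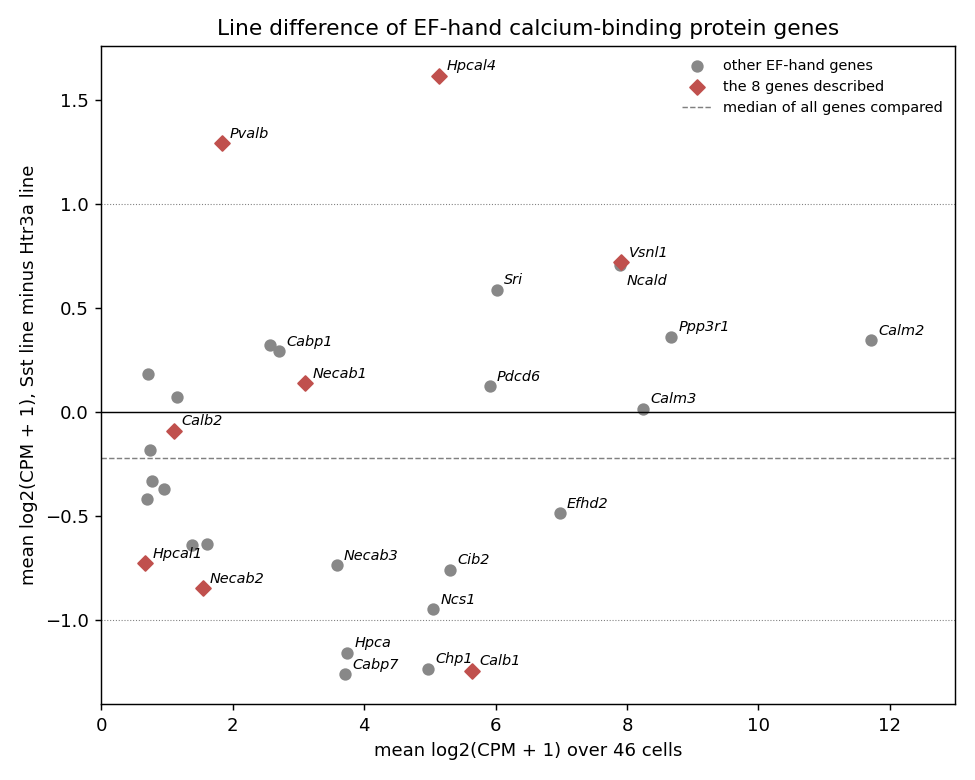
Line difference (mean log2(CPM + 1), Sst line minus Htr3a line) of the 8 genes (red diamonds) and of other EF-hand genes (grey) against their mean over 46 cells; dotted lines mark a difference of 1 in either direction and the dashed line the median of all genes compared, -0.22. Hpcal4 and Pvalb lie above 1, and Calb1 lies below -1 among several other EF-hand genes.

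The classical buffers, often used as markers of separate classes, were read together in some OLM cells of both lines. Of the combinations of Pvalb, Calb1 and Calb2, Calb1 alone was found in 6 Sst-line cells (26.1%, 10.2 to 48.4) and 9 Htr3a-line cells (39.1%, 19.7 to 61.5). Pvalb with Calb1 was found in 5 Sst-line cells and 3 Htr3a-line cells, Pvalb alone in 3 and 1, and Calb1 with Calb2 in 1 and 4. All 3 buffers were read together in 2 cells of each line, and none of them in 6 Sst-line cells (26.1%, 10.2 to 48.4) and 3 Htr3a-line cells (13.04%, 2.78 to 33.6). Calb2 without either of the others was read in 0 Sst-line cells and in 1 Htr3a-line cell (replicate 8). Per kb, the leading buffer was Calb1 in 9 Sst-line and 14 Htr3a-line cells, Pvalb in 6 and 4, and Calb2 in 2 and 2. Without Htr3a replicates 4 and 20, where Calb1 led with 3 reads and 1 read, it led in 12 Htr3a-line cells.

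At 10 CPM the pattern thinned in the Htr3a line. Pvalb and Calb2 were then co-detected in 2 Sst-line cells (replicates 7 and 9, both with Calb1 too) and in 0 Htr3a-line cells. The product of the 2 shares gives 1.30 and 0.52 cells for this pair. Pvalb and Calb1 were together in 6 Sst-line cells and 2 Htr3a-line cells, against 5.65 and 2.09 given by the product of the 2 shares. At 1 read the same pair was found in 7 and 5 cells, against products of 6.09 and 4.70. Pvalb was thus read with Calb1 about as often as their separate shares give. Calb2 at 10 CPM came with Calb1 in 3 of 3 Sst-line cells and 3 of 4 Htr3a-line cells, beside products of 1.70 and 2.78.

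**Figure D4:**
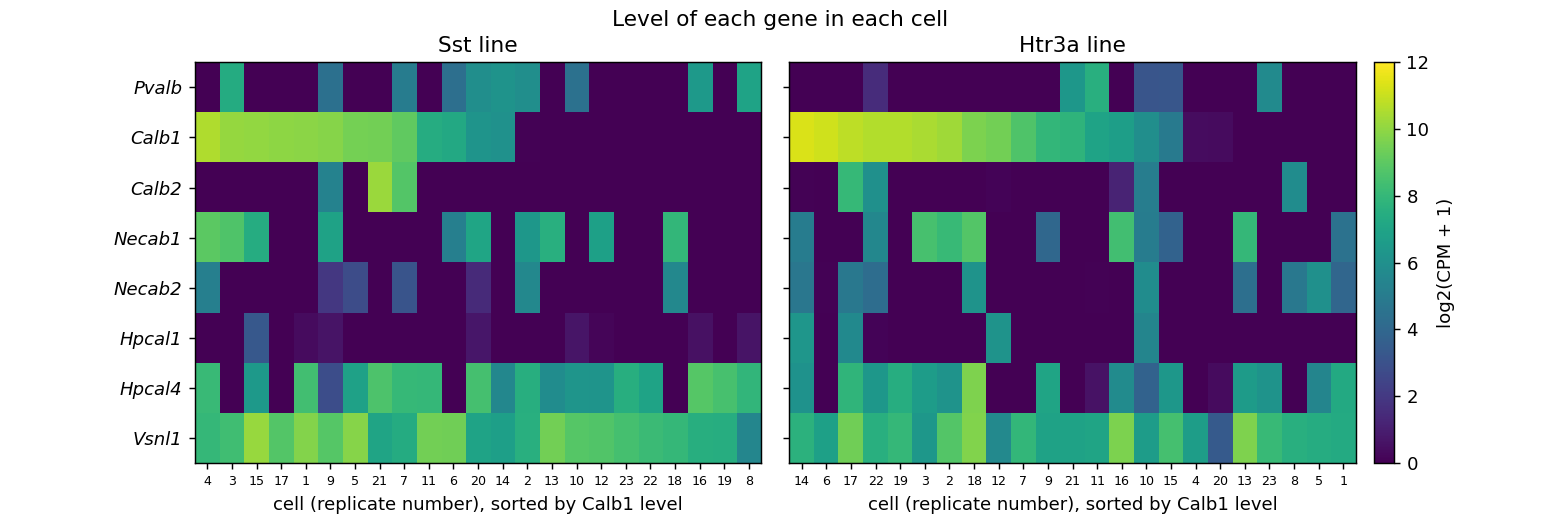
Level of each gene (rows, log2(CPM + 1) by colour) in each cell (columns, replicate numbers), Sst line left and Htr3a line right, sorted by Calb1 level within a line. Vsnl1 runs through every cell, and Pvalb is found in cells with and without Calb1.

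Necab1 and Necab2 were read together in 5 Sst-line cells and 6 Htr3a-line cells, beside products of 3.04 and 5.26. Necab1 alone was read in 5 cells of each line, Necab2 alone in 2 cells of the Sst line and 5 of the Htr3a line, and neither in 11 and 7. At 10 CPM no Sst-line cell held Necab2 without Necab1, while 3 held both; in the Htr3a line 3 cells held Necab2 alone and 6 held both. Pvalb and Necab1 were together in 5 Sst-line cells at 10 CPM (product 4.35) and in 0 Htr3a-line cells (product 1.43), while at 1 read they shared 3 Htr3a-line cells. Calb1 and Necab1 were together in 6 and 9 cells at 10 CPM, beside products of 5.65 and 7.65.

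Of the 28 pairs, Necab1 with Hpcal4 was singled out after the values were seen, for correlations of opposite sign in the lines. All 11 Htr3a-line cells with Necab1 also held Hpcal4, at 1 read and at 10 CPM (products 8.13 and 7.17), against 7 of 10 Sst-line cells at 1 read (product 8.26). Across the 23 cells of a line, the correlation of the log2(CPM + 1) values was -0.39 in the Sst line against 0.63 in the Htr3a line (Spearman -0.37 and 0.52), and without Htr3a replicates 4 and 20 it was 0.59. Without the 2 cells farthest from the median of Necab1 the values were -0.38 and 0.56. Hpcal4 and Vsnl1 likewise correlated at -0.26 in the Sst line against 0.60 in the Htr3a line, or 0.55 without those 2 libraries (Spearman -0.39 and 0.53). All 3 genes correlated with depth in the Htr3a line. The correlation with the log2 of total reads was 0.39 for Necab1, 0.49 for Hpcal4 and 0.66 for Vsnl1, against -0.10, 0.17 and -0.000468 for the same genes in Sst-line cells. Without Htr3a replicates 4 and 20 the values of that line were 0.34, 0.38 and 0.31. The part of depth in these correlations was not tested. Pvalb and Vsnl1, also singled out after the values were seen, correlated at -0.53 in the Sst line against -0.07 in the Htr3a line (Spearman -0.51 and -0.07). The Htr3a-line value was -0.21 without replicates 4 and 20. Without the 2 cells of each line farthest from the median of Pvalb, the values were -0.47 and 0.05.

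Hpcal1 and Calb2, a pair also singled out after the values were seen, coincided in the Htr3a line at 1 read. All 5 Htr3a-line cells with Hpcal1 were among the 7 with Calb2 (product 1.52), while 1 of 8 such Sst-line cells held Calb2. These detections were thin: Calb2 had 1 read in replicates 12 and 14, and Hpcal1 had 1 read in replicate 22. At 10 CPM the overlap came to 2 Htr3a-line cells of 4 and 4, replicates 10 and 17. Without replicate 10, all 4 remaining cells with Hpcal1 held Calb2 at 1 read, and 1 of 3 did at 10 CPM. Htr3a replicate 10 held reads of all 8 genes, as did Htr3a replicate 22 and Sst replicate 9. All 8 Sst-line cells with Hpcal1 reads also held Hpcal4. Calb2 also met Necab2 in the Htr3a line, a pair likewise singled out after the values were seen. All 4 Htr3a-line cells with Calb2 at 10 CPM held Necab2 (product 1.57), against 0 of 3 in the Sst line (product 0.39). At 1 read these counts were 5 of 7 (product 3.35) and 2 of 3 (product 0.91).

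**Figure D5:**
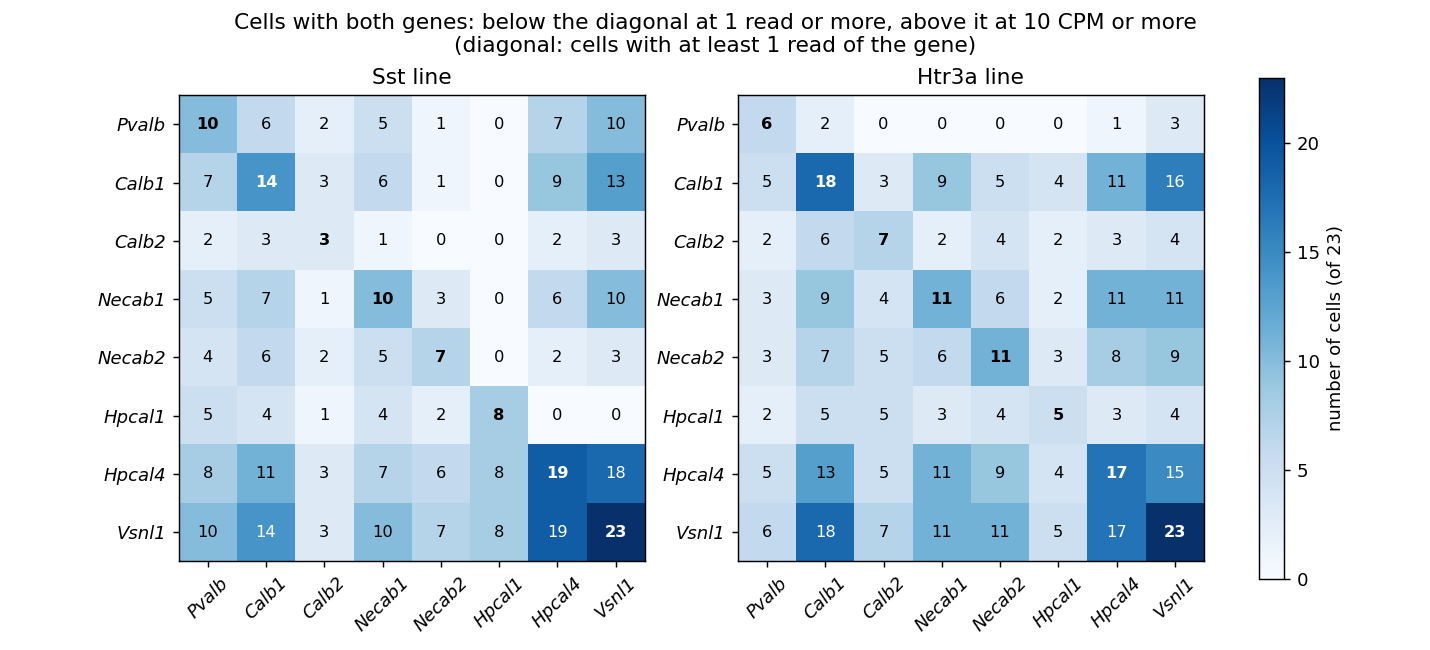
Number of cells (of 23) in which both genes were read, Sst line left and Htr3a line right; below the diagonal at 1 read, above it at 10 CPM, with the diagonal giving cells with at least 1 read. Necab1 with Hpcal4 is found in 11 of the 11 Necab1-positive Htr3a-line cells. Pvalb, at 10 CPM in 3 cells of that line, meets neither Necab1 nor Calb2 there (products of shares 1.43 and 0.52 cells).

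The other EF-hand genes, a list of 36, were all in the table, and 24 had a mean of at least 0.5. Of these, 0 were called higher in the Sst line and 3 lower, beside 4.24% and 14.9% of all genes, and their median difference was -0.29. The calmodulin gene Calm2 was read in every cell of both lines. It averaged 11.89 ± 0.50 log2(CPM + 1) in the Sst line against 11.55 ± 0.71 in the Htr3a line (SD, 23 cells each). In each line its SD between cells was smaller than that of each of the 8 genes described above. The smallest of those were 0.71 for Hpcal1 over Sst-line cells, most of them without a read, and 1.44 for Vsnl1 over Htr3a-line cells. Calm3 (8.26 and 8.24) was also read in all 46 cells.

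Among the relatives of Vsnl1, Ncald had reads in 23 cells of the Sst line and 22 of the Htr3a line (difference 0.71), Ncs1 in 21 and 22 (-0.95) and Hpca, the hippocampal founder of the Hpcal genes, in 12 and 18 (-1.16, called lower). The third NECAB gene, Necab3, was read in 13 and 17 cells (-0.74). Scgn, which encodes secretagogin, had 0 reads in all 46 cells, an exact interval of 0 to 14.8% of cells per line. Of the remaining genes with reads in at least 12 cells, those with the largest differences were Cabp7 (-1.26), a Golgi-associated calmodulin relative, Chp1 (-1.24) and Cib2 (-0.76). By summed CPM the log2 ratios were smaller in size for Hpca (-0.53), Cabp7 (-0.78), Chp1 (-0.37) and Ncald (0.20). With the median over cells in place of the mean, the difference of Ncald turned to -0.26.

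Calb2, read in 10 cells, was too sparse for a search of similar genes. For each of the 7 genes with reads in at least 12 cells, 10004 genes were ranked by similarity. The measure was the Pearson correlation of log2(CPM + 1) over 46 cells after the line means were taken off. The 3 most similar are given, with pseudogenes and predicted genes (Gm or Rik names) passed over, so a gene passed over may be nearer. These values are the highest of many and describe these cells, which share depth within a library. For Vsnl1 they were Sncb (0.72), Rtn3 (0.70) and Reep5 (0.69), all read in 46 cells; Sncb encodes beta-synuclein and Rtn3 and Reep5 shape the endoplasmic reticulum. For Hpcal4 they were Eif3c (0.66), Cs (0.62) and Fndc4 (0.60), and for Calb1 Kcnab1 (0.55), a potassium channel beta subunit, Pcp4l1 (0.52) and Rnaseh2b (0.51). For Pvalb they were Aamdc (0.62), Gngt2 (0.56) and Ino80b (0.56). Necab1 was nearest to Tmem63b (0.65), Slc4a1ap (0.62) and Gpr83 (0.62), and Necab2 to Mtor (0.58), Rgs9 (0.54) and Iars2 (0.54). Hpcal1 was nearest to Cbfa2t3 (0.66), Egln3 (0.64) and Lrrc73 (0.62). Within the Sst line these were at -0.11, -0.15 and 0.44, and within the Htr3a line at 0.85, 0.68 and 0.66.

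Markers of other cells were read beside these genes. Pyramidal cells also express Calb1, Vsnl1 and Hpca; their 10 listed markers summed to a median of 24.8 CPM in Sst-line cells (0 to 270) and 46.4 CPM in Htr3a-line cells (0 to 258). Of these markers, 3 had a mean of at least 0.5, and they went different ways, with differences of 1.15 for Camk2a, -0.69 for Nrgn and -1.05 for Fibcd1. The glutamate transporter gene Slc17a7 was read in 0 and 2 cells. Of 7 parvalbumin basket cell genes, 2 passed a mean of 0.5, both of which are widely expressed in neurons (Cplx1 and Kcnc1), and the list summed to a median of 1401 CPM in Sst-line cells (267 to 2782) and 1542 CPM in Htr3a-line cells (42.5 to 3417). The other 5 were each read in 0 to 2 Sst-line and 1 to 5 Htr3a-line cells. Microglial genes, all 9 of them above a mean of 0.5, summed to medians of 774 CPM (0.0536 to 10876) and 448 CPM (0 to 8443). The part of such transcripts in the results above was not tested.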

How the data were processed

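The authors deposited raw read counts per gene, by symbol and by Ensembl identifier, and a normalized table. Tools named per the submitters' processing notes are Trimmomatic, STAR and featureCounts, with GRCm38 as genome build. Their versions, the annotation used and the strand setting are not known here. The normalized values, a linear signal as deposited, were counts divided by a factor for each cell (100% of those above 0 fell within 0.1% of it). The table by symbol was used here, and the counts of the 8 genes were identical by Ensembl identifier in all 46 cells. Without molecular identifiers, copies of 1 molecule can be counted more than once.

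Counts were scaled to CPM and expressed as log2(CPM + 1) in Python 3.11.15. Genes with a mean of at least 0.5 were compared. Names, exon lengths and coding sequences came from GENCODE M21. The genes named are the 8, near relatives and the largest differences of an EF-hand list, and the 3 most similar genes each. Among the similar genes, predicted genes and pseudogenes were passed over. A gene that this rule takes and a sequence are not reported here. Members and lists were chosen with earlier results of these data known. Calculations were tested on simulated data. Alternatives used edgeR 4.0.16 and DESeq2 1.42.0 only for scaling factors.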

Additional observations from a re-analysis of the deposited data

How the results depend on the processing

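No paired analysis was possible because the replicate numbers were given in accession order, no animal is named and no test was made. The SD between single cells, 1.30 to 4.56 on the log2 scale, is wide beside the line differences, so values that moved by less than it are not thereby stable. At 10 CPM the share of Sst-line cells fell to 13.04% for Necab2 and 0% for Hpcal1, and in the Htr3a line Pvalb was co-detected with Calb2 and with Necab1 in 0% of cells. For those 2 pairs the products of shares were 0.52 and 1.43 cells. With a pseudocount of 10, 89 genes were called higher and 185 lower in the Sst line, against 475 and 1671, which moved the share of calls that were higher to 32.5%, against 22.1%. Without Htr3a replicates 4 and 20, a setting added after seeing the data, it was 12.5%, from 325 and 2278 calls. Leaving out 1 cell moved the line difference between 1.07 and 1.58 for Pvalb, -1.53 and -1.02 for Calb1, 1.42 and 1.89 for Hpcal4, 0.53 and 0.85 for Vsnl1, -0.51 and 0.22 for Calb2, and -0.13 and 0.40 for Necab1. That of Necab2 lay between -1.05 and -0.66 and that of Hpcal1 between -0.86 and -0.49. The cause of these shifts was not tested.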
